A study of Mus musculus with 4 samples.

Results

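The replication-dependent histone genes were read from RNA sequencing of BV2, an immortalised mouse microglial cell line. They are the gene symbols of the deposited counts that begin with Hist1h, Hist2h, Hist3h or Hist4h and hold at least 10 counts over the 4 libraries. Of 24411 listed symbols, 68 matched the pattern and 53 reached the minimum, and all 53 were also among the 9992 genes tested. They comprise 4 H1, 13 H2a, 14 H2b, 10 H3 and 12 H4 genes. All libraries carry the label of a CRISPR-Cas9 knockout of PU.1, the ETS family transcription factor of myeloid cells encoded by Spi1. Of these, 2 libraries came from cells given lipopolysaccharide (LPS, a bacterial cell wall product that activates TLR4) at 10 ng/ml, and 2 came from untreated cells. The LPS exposure is 2 h by the source name and 4 h by the title, a conflict that the files do not settle. No unedited BV2 cells enter the comparison, so it measures LPS within the PU.1 knockout label only, and the labels do not say whether the line is 1 clone. The RNA was total RNA depleted of ribosomal RNA, so transcripts without a poly(A) tail could be counted.

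Replication-dependent histone genes lie in clusters, have no introns in their main transcripts and are expressed in S phase, when new chromatin is assembled. H2A, H2B, H3 and H4 form the protein core of the nucleosome, and H1, the linker histone, binds the DNA where it enters and leaves that core. Their mRNAs end in a conserved stem-loop in place of a poly(A) tail, and the stem-loop binding protein SLBP and the U7 ribonucleoprotein form that end. In cycling myeloid cells and cell lines these mRNAs mark the cells that are replicating DNA.

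The stem-loop is the sequence feature that defines these mRNAs, and 37 of the 53 genes hold one in the annotated transcript, within the stretch that follows the coding sequence. The lines give the 16 bases of the stem-loop in capitals with 5 bases on either side, 5′ to 3′, written as DNA on the gene's strand and read from GENCODE vM21 transcripts. They show the 2 genes that were higher after LPS, both H4 genes with the largest falls, and 4 genes to compare them with.
Hist3h2a: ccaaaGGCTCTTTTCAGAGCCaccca
Hist1h3b: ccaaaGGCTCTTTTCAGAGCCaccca
Hist1h3d: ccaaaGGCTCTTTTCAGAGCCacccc
Hist1h3g: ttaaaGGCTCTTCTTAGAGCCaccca
Hist1h4b: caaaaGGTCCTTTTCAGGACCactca
Hist4h4: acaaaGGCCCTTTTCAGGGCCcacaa
Hist1h4j: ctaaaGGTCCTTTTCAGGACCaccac
Hist1h4d: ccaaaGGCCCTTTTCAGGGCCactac
The same 16 bases, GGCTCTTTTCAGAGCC, stood in 3 H1, 6 H2a, 7 H2b and 3 H3 genes, and all 11 H4 stem-loops differed from them in the stem. Hist3h2a and Hist1h3b, which were higher after LPS, and Hist1h3d, which was lower, share the 16 bases. Hist1h4b and Hist1h4j share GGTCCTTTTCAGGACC, and their log2 fold changes were -1.34 and -0.28. Of the 37 genes with a stem-loop, 22 fell and 2 rose (median log2 fold change -0.36), beside 25.3% and 26.6% of all genes. Of the 16 without one in the annotation, 12 fell and none rose (median -0.41). In 14 of those 16 the annotated transcript ends nearer to the coding sequence than the farthest stem-loop found, which starts 54 bases after it, so the place of the stem-loop is not annotated there.

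The promoters are shown for the 3 genes that fell more than 2-fold and the 2 that rose, because Hist1h3b and Hist1h4b are neighbours on chromosome 13 that moved in opposite directions. Each runs from 250 bases before to 50 bases after the start of the gene, 5′ to 3′ on the gene's strand, from RefSeq on GRCm38.p6. Capitals mark exact matches on either strand to the CCAAT box motif, to the motif TATAA, and to ATTTGCAT, the octamer.
Hist1h4b, chr13:23756687-23756986, plus strand: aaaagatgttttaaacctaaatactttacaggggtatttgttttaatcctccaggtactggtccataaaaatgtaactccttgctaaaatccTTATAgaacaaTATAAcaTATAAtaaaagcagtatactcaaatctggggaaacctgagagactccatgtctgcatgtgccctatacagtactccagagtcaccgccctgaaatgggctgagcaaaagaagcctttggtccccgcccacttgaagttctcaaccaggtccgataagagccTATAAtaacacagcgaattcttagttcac
Hist4h4, chr6:136804382-136804681, minus strand: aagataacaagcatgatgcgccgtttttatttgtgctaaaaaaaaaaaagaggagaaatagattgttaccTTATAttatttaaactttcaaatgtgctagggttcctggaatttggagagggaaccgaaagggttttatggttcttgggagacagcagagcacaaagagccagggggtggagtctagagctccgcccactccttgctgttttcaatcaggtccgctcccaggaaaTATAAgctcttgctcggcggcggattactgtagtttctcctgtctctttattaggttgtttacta
Hist1h2bl, chr13:21716134-21716433, minus strand: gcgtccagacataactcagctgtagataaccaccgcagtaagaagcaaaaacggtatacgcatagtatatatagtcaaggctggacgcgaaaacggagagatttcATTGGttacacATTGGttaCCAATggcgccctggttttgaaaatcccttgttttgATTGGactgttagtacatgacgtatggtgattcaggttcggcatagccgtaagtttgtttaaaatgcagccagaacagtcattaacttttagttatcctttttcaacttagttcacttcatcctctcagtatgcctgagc
Hist1h3b, chr13:23752095-23752394, plus strand: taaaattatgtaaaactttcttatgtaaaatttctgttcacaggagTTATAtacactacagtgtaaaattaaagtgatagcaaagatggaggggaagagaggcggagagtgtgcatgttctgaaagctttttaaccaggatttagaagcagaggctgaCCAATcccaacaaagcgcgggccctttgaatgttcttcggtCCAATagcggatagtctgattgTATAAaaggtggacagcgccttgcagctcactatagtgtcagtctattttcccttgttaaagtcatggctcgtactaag
Hist3h2a, chr11:58954435-58954734, plus strand: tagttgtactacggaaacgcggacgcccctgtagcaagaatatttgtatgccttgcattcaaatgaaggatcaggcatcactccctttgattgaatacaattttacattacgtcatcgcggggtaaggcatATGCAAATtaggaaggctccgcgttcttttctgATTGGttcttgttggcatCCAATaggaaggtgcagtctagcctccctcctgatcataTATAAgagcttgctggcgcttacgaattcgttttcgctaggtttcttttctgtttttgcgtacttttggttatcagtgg
Among 47 members with 1 promoter in that table, 83% held CCAAT, 80.9% TATAA and 23.4% the octamer. Of all 32851 promoters of the same length, 37.4%, 24.9% and 1.74% did. Matches on either strand count, and histone genes that start head to head share much of their promoter stretch, such as Hist1h2ah and Hist1h2bk. There 1 site can count for both genes, which can raise the shares of the members. CCAAT stood in every H1, H2a, H2b and H3 promoter matched and in 27.3% of 11 H4 promoters, including neither Hist1h4b nor Hist4h4. The octamer stood only in H2a and H2b promoters of the matched members, in 46.2% of 13 and 45.5% of 11. Hist1h3b and Hist1h4b, whose starts lie next to each other in the order of these genes, therefore differ in CCAAT, and both hold TATAA.

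Before the results, the libraries need a short account. Gene counts totalled 3256197 and 3749159 in LPS libraries 1 and 2 and 4502105 and 4115011 in untreated libraries 1 and 2. Levels are in CPM, counts divided by the library size after scaling with TMM, edgeR's trimmed mean factor. Spi1 was counted in every library, at 258 and 291 CPM after LPS and 161 and 164 CPM without it (log2 fold change 0.75 ± 0.09 (SE), adjusted p = 8.8e-10, edgeR quasi-likelihood test), and counts over the gene do not show whether it carries an edit. The 8 microglia and macrophage markers all had counts and summed to 2652 and 2829 CPM after LPS and 1890 and 1962 CPM without it. Most markers of other cell types were at 0, and the exceptions above 1 CPM were the endothelial markers Kdr and Vwf, which summed to 49.9 and 33.7 CPM after LPS and 22.8 and 23.2 CPM without it. Their part in the histone results was not tested. LPS library 1 had the lowest summed histone level of all 4, and the results below are given with a library left out where that matters.

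Most histone genes were lower after LPS. By edgeR's quasi-likelihood test with Benjamini-Hochberg adjustment over all genes tested (threshold 0.05), 34 of the 53 fell, 2 rose and 17 did not pass. Across all genes tested 25.3% fell and 26.6% rose. The median log2 fold change of the 53 was -0.38, against 0.00 for all genes, and 46 of the 53 values were below 0. In CPM, both LPS libraries lay below both untreated ones for 37 members and above them for 2, beside 37.6% and 37.5% of all genes, and the groups of 14 members overlapped. This direction depends on how the GC content of the genes is treated. With library offsets corrected for the GC content of each gene's longest transcript, 27 fell and 6 rose, beside 30.7% and 20.8% of all genes, and the median was -0.27 against -0.11 for all genes. A further fit, chosen after seeing the data, used the GC content of the coding sequence for the histone genes only. All other genes kept the GC content of their longest transcript, so unlike measures were mixed, and histone counts include reads outside the coding sequence. In that fit 12 histone genes fell and 16 rose, beside 30.7% and 20.9% of all genes, and the median turned to 0.02 against -0.11. The direction of the group thus changed with this choice, while a smaller set of genes fell and 2 rose in each of the fits.

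That smaller set holds 11 of the 34 genes, which fell in the fit as reported and in all 17 alternative settings. They are Hist1h1b, Hist1h2ak, Hist1h2bj, Hist1h2bk, Hist1h2bl, Hist2h2bb, Hist2h2be, Hist1h3d, Hist1h3g, Hist1h4b and Hist4h4, of which Hist1h2bj, Hist2h2be and Hist4h4 were picked out after their values were seen. All 5 histone types are among them, H1 through Hist1h1b only. With coding GC content Hist1h1b passed narrowly (-0.19, adjusted p = 0.0468, edgeR), as did Hist1h2bk (-0.24, adjusted p = 0.0452, edgeR). The 2 genes that rose, Hist3h2a and Hist1h3b, also did so in all 17 settings. By size, 3 of the 53 genes fell more than 2-fold and 1 rose more than 2-fold, beside 7.73% and 9.47% of all genes tested. Leaving out LPS library 1 gave 28 lower and 4 higher members (median -0.28), beside 23.2% and 25% of all genes. Leaving out LPS library 2 gave 41 lower and 2 higher (median -0.55), beside 22.4% and 24.5%.

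**Figure D1:**
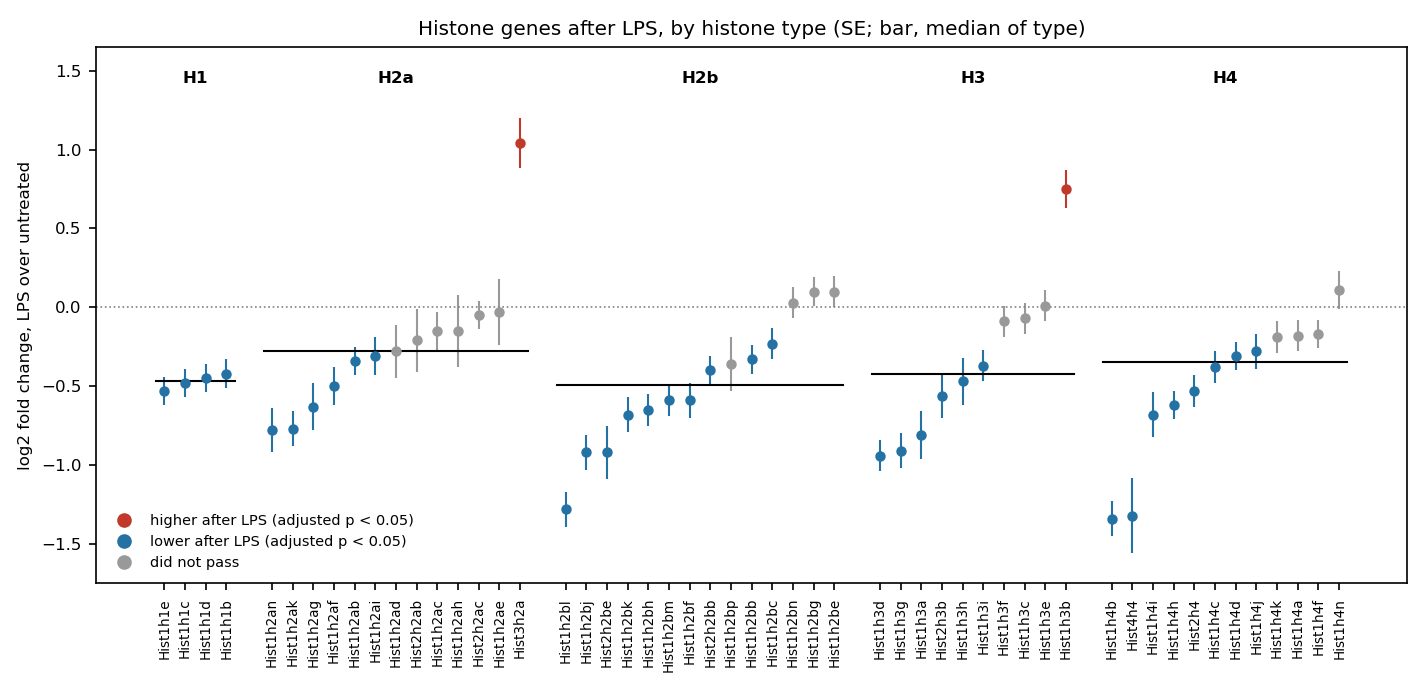
Log2 fold change of LPS over untreated (y axis) for each of the 53 histone genes (x axis), in groups by histone type, with standard errors as vertical lines, colour for the test result and a black bar at the median of each type. The 4 H1 genes lie close together between -0.53 and -0.42, while the H4 genes range between -1.34 and 0.11.

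GC content moved with the response across the whole table, and the histone genes are among its GC-rich genes. The longest transcripts of the 53 had a median GC content of 57.8%, between 39.8% and 70%, against 49.3% for all genes with a value. In the quintile of genes with the highest GC content (55.2% to 72.5%), all genes had a median of -0.31 and 43.6% fell. That quintile holds 32 histone genes, of which 21 fell and 1 rose, with a median of -0.41. With GC-corrected offsets their median was -0.04, against -0.05 for all genes of that quintile. In the 3 middle quintiles the histone medians were -0.23 (7 genes), -0.38 (5 genes) and -0.32 (8 genes). All genes there had medians of 0.10, 0.01 and -0.16. With the same GC-corrected offsets the histone medians of these 3 quintiles were -0.46, -0.51 and -0.30, against -0.14, -0.09 and -0.11 for all genes. The longest annotated transcript of several histone genes is a long one that reaches far past the stem-loop, such as 7425 bases for Hist1h1d with a coding length of 666, and its GC content of 39.8% is far below the 62.6% of the coding sequence. With the first correction Hist1h1d was at -0.86 and with the second at -0.03. Both corrections also differed in genes with short transcripts, such as Hist1h4a with 539 bases (-0.01 and 0.29). Within the 53 genes, GC content and log2 fold change had a Spearman's rho of -0.11, given as a description of genes that share their libraries.

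**Figure D2:**
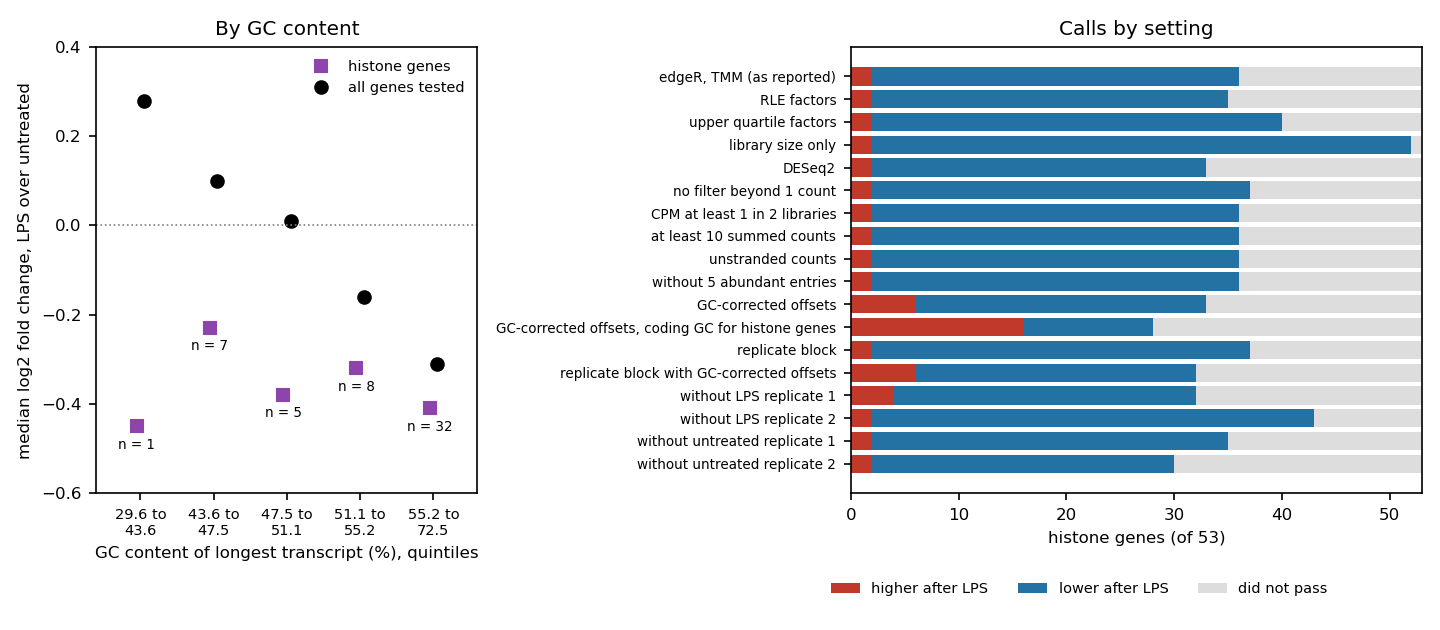
Left, median log2 fold change of LPS over untreated (y axis) in quintiles of GC content (x axis) for histone genes (squares, with their number) and all genes tested (circles); right, number of the 53 histone genes that rose, fell or did not pass (x axis) in each setting of the analysis (y axis). The medians of all genes run between 0.28 and -0.31, and the setting with coding GC content is the one with more rises (16) than falls (12).

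The total of the histone counts was lower in both LPS libraries. Summed over the 53 genes, the level was 6347 and 7601 CPM in LPS libraries 1 and 2 and 8666 and 9421 CPM in the untreated libraries. These sums were 0.562% and 0.668% of all gene counts after LPS, and 1.01% and 1.04% without it. The groups did not overlap, and the LPS mean was 77.1% of the untreated mean (6974 ± 886 against 9043 ± 534 CPM, SD, n = 2 each). No test of these sums was made. In a bulk sample, fewer cells in S phase and less histone RNA per cell cannot be told apart. The sums also carry no GC correction. With coding GC content the median log2 fold change of the 53 genes was 0.02, against -0.38 as reported. The part of GC content in the lower sums was not tested.

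**Figure D3:**
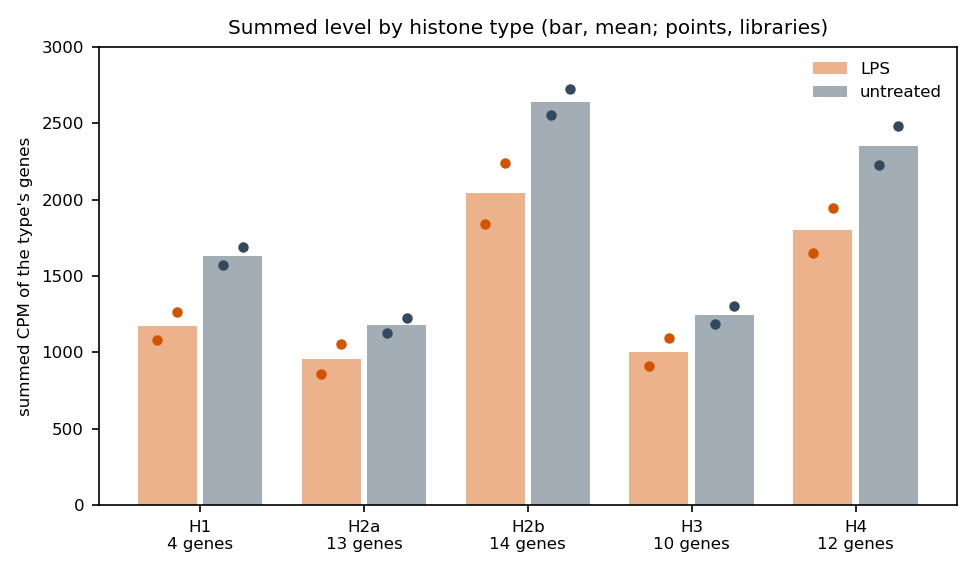
Summed CPM of the genes of each histone type (y axis) by type (x axis), without GC correction. Bars stand at the mean of 2 libraries and points show the libraries, LPS left of untreated. In every type both LPS points lie below both untreated points, and H2b had the highest sums.

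The H1 genes encode the linker histones, and all 4 counted ones fell by a similar amount, beside 25.3% of all genes that fell. Their summed level was 1080 and 1265 CPM after LPS and 1574 and 1690 CPM without it. Hist1h1c had 377 and 457 CPM after LPS, against 565 and 600 CPM in untreated cells, and fell by 0.48 ± 0.09 on the log2 scale (SE, adjusted p = 9.1e-06, edgeR quasi-likelihood test). Hist1h1e had 266 and 304 CPM after LPS, against 395 and 428 CPM, a fall of 0.53 ± 0.09 (adjusted p = 1.4e-06, edgeR). In both genes the higher LPS library stayed below the lower untreated library. Hist1h1d stood at 183 and 226 CPM after LPS and 274 and 287 CPM without it, with a log2 fold change of -0.45 ± 0.09. Hist1h1b, at 254 and 278 CPM after LPS and 340 and 374 CPM without it, had -0.42 ± 0.09. These genes are the least alike of the family. Of the 101-base stretches of their coding sequence, 86.4% to 100% occur in no other listed histone gene. Most of their coding reads can therefore be told from those of the other listed histone genes. With coding GC content Hist1h1b alone of the 4 remained lower (log2 fold change -0.19), and Hist1h1c, Hist1h1d and Hist1h1e were at -0.03, -0.03 and -0.12.

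H2a genes encode the H2A partner of the H2A-H2B dimer. Of 13, 6 fell, 1 rose and 6 did not pass, beside 25.3% and 26.6% of all genes that fell and rose. The H2a median log2 fold change was -0.28. The median was -0.12 without LPS library 1, -0.42 without LPS library 2, and 0.05 and 0.19 under the GC corrections from longest transcripts and coding sequence. The gene that rose was Hist3h2a, which lies apart from the large clusters. It had 36.7 and 39.5 CPM after LPS, against 18.4 and 18.8 CPM in untreated cells, a rise of 2.05-fold (log2 1.04 ± 0.16, adjusted p = 3.3e-07, edgeR). Both LPS libraries stood well above both untreated ones, and the values within each pair were close. No 101-base stretch of its coding sequence is shared with another histone gene. Its longest transcript overlaps Trim17 on the same strand, and Trim17 was at 0 counts in every library.

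Hist1h2ak and Hist1h2an had the largest H2a falls. Hist1h2ak was at 72.4 and 99.6 CPM after LPS and 141 and 155 CPM without it (log2 fold change -0.77 ± 0.11, adjusted p = 8.8e-07, edgeR). Hist1h2an, a less expressed gene, was at 28.8 and 35.8 CPM after LPS and 54.3 and 57.5 CPM without it (-0.78 ± 0.14). Neither pair of groups overlapped. With the GC correction from longest transcripts Hist1h2an no longer passed (-0.27, adjusted p = 0.0892, edgeR), while Hist1h2ak did (-0.27, adjusted p = 0.0266, edgeR). They differ in how well their reads can be placed, since 89.7% of the coding stretches of Hist1h2ak and 15.9% of those of Hist1h2an are unique to them. Hist1h2ag (-0.63), Hist1h2af (-0.50), Hist1h2ab (-0.34) and Hist1h2ai (-0.31) also fell in the fit as reported, and none of these 4 passed under either GC correction. Hist2h2ac, the most abundant H2a gene, had 206 and 203 CPM after LPS and 209 and 213 CPM without it. That difference did not pass (log2 fold change -0.05 ± 0.09, adjusted p = 0.683, edgeR), and under both GC corrections the gene was higher, by 0.35 and 0.43. It stands beside Hist2h2be, an H2b gene on chromosome 3 that fell by 0.92.

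H2b genes encode the other partner of that dimer and, in the fit as reported, include the largest share of falls after H1. Of 14, 10 fell, none rose and 4 did not pass, beside 25.3% and 26.6% of all genes that fell and rose. The H2b median was -0.49. Under both GC corrections it was -0.33 and -0.16. With the correction from longest transcripts 9 of 14 H2b and 8 of 12 H4 genes fell, beside 30.7% of all genes. The H2b share was not the larger of these. Hist1h2bl had 60.0 and 68.0 CPM after LPS, against 148 and 163 CPM in untreated cells, or 0.413 of the untreated level (log2 fold change -1.28 ± 0.11, adjusted p = 2.4e-14, edgeR). The untreated libraries were both more than 2-fold above the LPS ones. Hist2h2bb, the most abundant H2b gene and one with no shared coding stretch, had 324 and 398 CPM after LPS and 487 and 468 CPM without it (-0.40 ± 0.09, adjusted p = 1.7e-04, edgeR). The LPS libraries differed by more than the untreated ones, yet the groups did not overlap. Hist1h2bk was at 87.3 and 116 CPM after LPS and 151 and 176 CPM without it (-0.68 ± 0.11), although only 4.7% of its coding stretches are unique.

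Other H2b members fell in the fit as reported or did not pass. Of these, Hist1h2bj and Hist2h2be (both -0.92) fell in every setting, as given above. Hist1h2bh (-0.65), Hist1h2bm (-0.59), Hist1h2bb (-0.33) and Hist1h2bc (-0.23) also fell. With coding GC content none of these 4 fell, and Hist1h2bc was higher by 0.22. Hist1h2be had 147 and 175 CPM after LPS and 143 and 159 CPM without it, so its groups overlapped (log2 fold change 0.10 ± 0.10, adjusted p = 0.418, edgeR). Its GENCODE transcripts overlap Hist1h1e on the same strand. Whether the annotation behind the counts holds this overlap is not known, so its part in the counts of both genes was not tested. Hist1h2bg (0.10) and Hist1h2bn (0.03) did not pass either in the fit as reported. Hist1h2bn was higher under both GC corrections (0.48 and 0.47), and with coding GC content Hist1h2bg and Hist1h2be were higher as well (both 0.54).

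Of 10 H3 genes, 6 fell, 1 rose and 3 did not pass, beside 25.3% and 26.6% of all genes that fell and rose. The H3 median log2 fold change was -0.42. Without LPS library 1 the median was -0.21, and under the GC corrections from longest transcripts and coding sequence it was -0.01 and 0.05. H3 carries many of the regulatory marks of chromatin, and the replication-dependent genes encode its H3.1 and H3.2 forms. All 4 H3.1 genes fell, Hist1h3g by 0.91, Hist1h3a by 0.81, Hist1h3h by 0.47 and Hist1h3i by 0.37 on the log2 scale. Their summed level was 255 and 318 CPM after LPS and 408 and 451 CPM without it. Of the 6 H3.2 genes, 2 fell, 1 rose and 3 did not pass, and their sum was 656 and 780 CPM after LPS and 778 and 851 CPM without it. In the H3.2 sum the groups overlapped, and in the H3.1 sum they did not. Whether both forms differ in response was not tested. Without LPS library 1 the median of the 4 H3.1 genes was -0.50, against -0.64 with all libraries. With coding GC content 1 of these 4 genes was lower (Hist1h3g), beside 30.7% of all genes.

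Hist1h3b rose and Hist1h3d fell, and both encode H3.2. Hist1h3b had 78.0 and 100 CPM after LPS, against 53.4 and 52.6 CPM in untreated cells (log2 fold change 0.75 ± 0.12, adjusted p = 1.1e-06, edgeR). Only 5.2% of its coding stretches are unique, so few reads within its coding sequence can be told from those of other H3 genes. Hist1h3d had 97.0 and 122 CPM after LPS and 203 and 220 CPM without it (-0.94 ± 0.10, adjusted p = 7.6e-11, edgeR), with 24.7% of its stretches unique. In both genes the groups were apart in every library. Hist2h3b, the H3 gene counted on chromosome 3, was lower at 28.4 and 31.3 CPM after LPS and 43.4 and 45.1 CPM without it (-0.56 ± 0.14), and did not pass under either GC correction. Hist1h3c, the H3 gene with the highest mean over the 4 libraries, had 174 and 228 CPM after LPS and 209 and 213 CPM without it, with the LPS libraries on either side of the untreated ones (-0.07 ± 0.10, adjusted p = 0.605, edgeR).

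H4 pairs with H3 in the core of the nucleosome. Of 12 H4 genes, 8 fell, none rose and 4 did not pass, beside 25.3% and 26.6% of all genes that fell and rose. The H4 median was -0.34. Without LPS library 1 the median was -0.20, and without LPS library 2 it was -0.46. Under the GC corrections from longest transcripts and coding sequence the median was -0.40 and 0.11. Hist1h4b had 58.9 and 68.9 CPM after LPS, against 147 and 178 CPM in untreated cells, 0.394 of the untreated level (log2 fold change -1.34 ± 0.11, adjusted p = 6.3e-14, edgeR). Hist4h4, alone on chromosome 6 and picked out after its values were seen, had 7.28 and 7.59 CPM after LPS and 18.4 and 18.8 CPM without it (-1.32 ± 0.24, adjusted p = 6.7e-06, edgeR). Both fell more than 2-fold with the groups well apart, at levels that differ widely, and they also fell under both GC corrections, at -1.02 and -0.87 for Hist1h4b and -1.63 and -0.89 for Hist4h4. Hist1h4d, the most abundant H4 gene, with no coding stretch shared, had 357 and 417 CPM after LPS and 460 and 498 CPM without it (-0.31 ± 0.09, adjusted p = 0.00268, edgeR). Hist1h4h (-0.62), Hist2h4 (-0.53), Hist1h4c (-0.38) and Hist1h4j (-0.28) fell as well. With coding GC content neither these genes nor Hist1h4d passed. Hist1h4n, whose coding sequence has no unique stretch, had the largest positive H4 value (0.11 ± 0.12, adjusted p = 0.461, edgeR), at 86.6 and 109 CPM after LPS and 82.2 and 100 CPM without it, so its groups overlapped. Under both GC corrections it was higher (0.42 and 0.58).

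**Figure D4:**
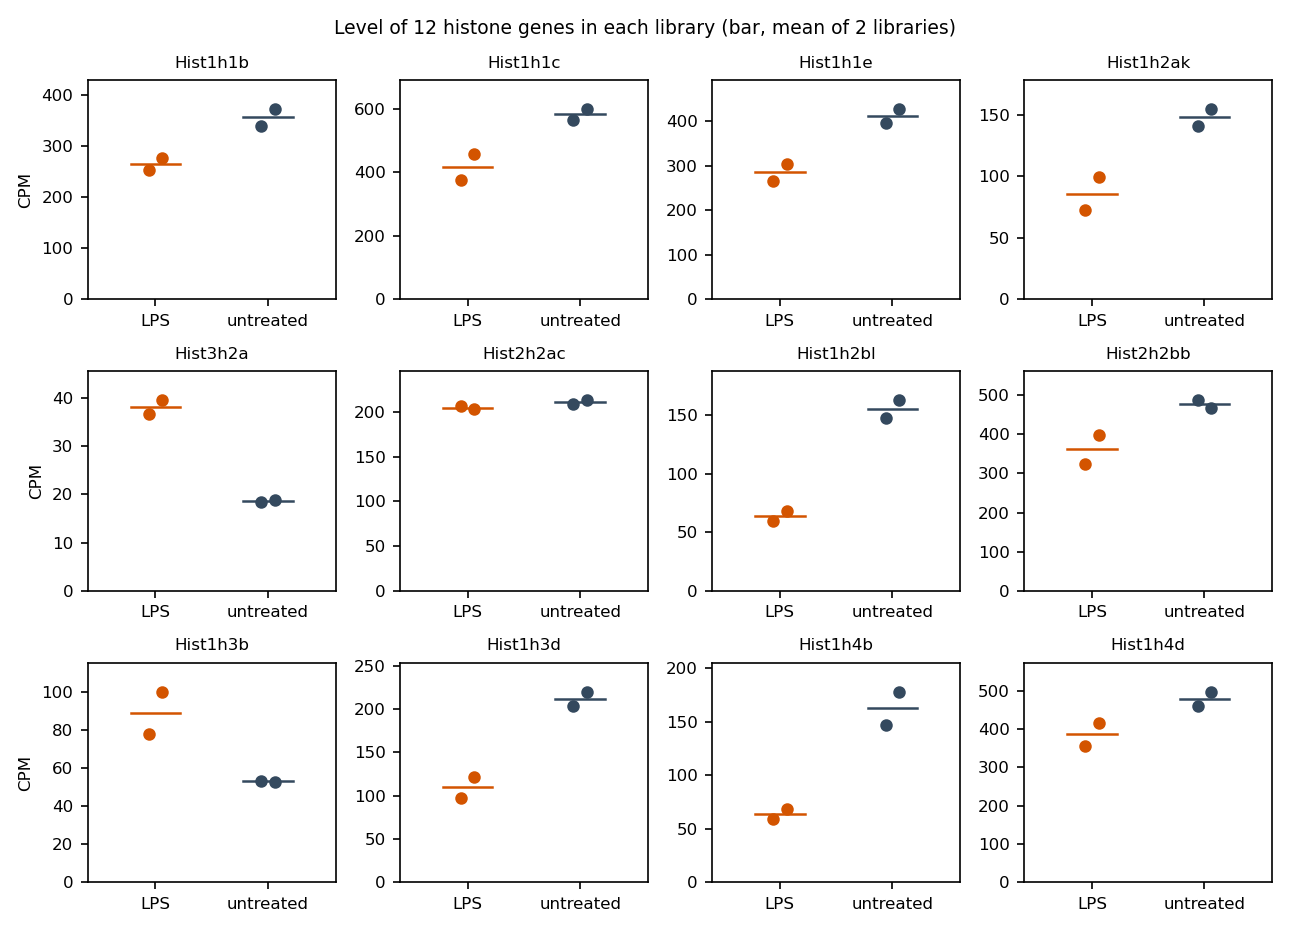
CPM in each library (y axis, from 0) of 12 histone genes, with points for the 2 LPS and 2 untreated libraries and a bar at each mean. Hist3h2a and Hist1h3b are higher in both LPS libraries, Hist2h2ac is nearly level, and the other 9 are lower in both LPS libraries.

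Levels were also scaled by coding length, as the mean CPM of the whole gene per kilobase of coding sequence. The counts include reads outside the coding sequence and only uniquely placed reads, so annotated length and unique placement enter the ranking. Hist1h4d has an annotated transcript of 1138 bases for 312 coding bases, and all its coding stretches are unique. Of the coding stretches of Hist1h2ah, 6% are unique. Hist1h4d was highest, with 1241 after LPS and 1536 in untreated cells, followed in untreated cells by Hist2h2bb at 948 after LPS and 1254 without it. Hist1h4h stood at 773 after LPS and 1189 without it. The lowest member in LPS cells was Hist4h4, with 23.8 after LPS and 59.5 without it, and the lowest in untreated cells was Hist1h2ah, with 33.6 after LPS and 37.9 without it. The level in untreated cells and the log2 fold change had a Spearman's rho of 0.04 across the 53 genes (a description of genes from the same libraries).

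The members were also set in the order of their positions, and differences between neighbours were not tested. The large group on chromosome 13 holds 45 members in 3 stretches of 13, 5 and 27 genes in GENCODE's order. In these stretches 9, 4 and 16 genes fell, beside 25.3% of all genes. On chromosome 3, 4 of 6 members fell, beside 25.3% of all genes, and all 6 had both LPS libraries below both untreated ones, beside 37.6%. Many of these genes, mostly an H2a with an H2b gene, stand head to head with their starts 176 to 660 bases apart, and 10 such pairs had both genes counted. In 2 pairs both genes fell, in 7 pairs 1 gene fell, and in 1 pair neither passed, which is a count of calls and not of differences within pairs. In Hist1h2ag and Hist1h2bj the log2 fold changes were -0.63 and -0.92. The widest gap, 0.97, was between Hist1h2bl (-1.28) and Hist1h2ai (-0.31), and the smallest, 0.08, between Hist1h2bc (-0.23) and Hist1h2ac (-0.15). Of all members next to each other in that order, Hist1h3b (0.75) and Hist1h4b (-1.34) were the farthest apart.

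**Figure D5:**
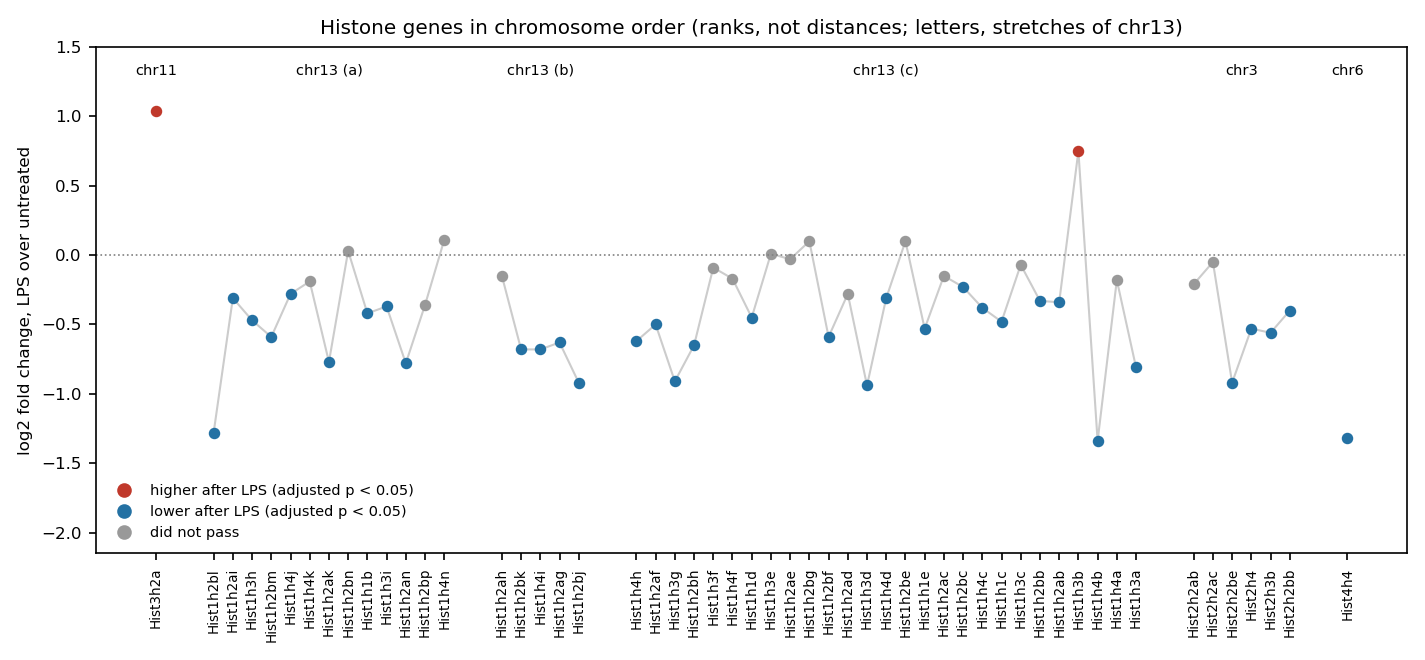
Log2 fold change of LPS over untreated (y axis) of the 53 histone genes in the order of their positions (x axis, ranks and not distances), with chromosome 13 in 3 stretches and colour for the test result. The riser Hist1h3b (0.75) stands directly beside the faller Hist1h4b (-1.34).

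Near-identical copies limit what could be counted. Only uniquely placed reads enter these counts, and reads placed at several positions made up 10.1% to 10.6% of reads. Within H2a, H2b, H3 and H4 the coding sequences of counted genes of equal length had median identities of 97.4%, 97.4%, 97.5% and 93.9%. A median of 44.5% of the 101-base coding stretches of a member occurred in no other listed histone gene, which is what unique means here and above. Other genes and the rest of the genome were not searched. By this measure 30 members had under 50% of their stretches unique and 3 had none. Those 30 had 18 falls and 1 rise (median -0.35). The 23 others had 16 falls and 1 rise (median -0.42), beside 25.3% and 26.6% of all genes. Of the 15 rows under the minimum, 13 had 0 counts in all libraries, which allows up to 0.188 CPM over the 4 libraries (3 counts, counting error only). Of these 13, 9 have no unique coding stretch, among them Hist1h2ao, Hist1h2ap, Hist2h2aa1, Hist2h2aa2, Hist2h3c1 and Hist2h3c2, and their 0 does not show that they are silent. Hist1h1t, Hist1h2aa, Hist1h2ba and Hist3h2ba have unique stretches and were also at 0. The row nearest under the minimum of 10 was Hist1h1a with 4 counts in all, and the member nearest above it was Hist1h2ah with 222.

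Genes that form the histone mRNA end, handle histones or replicate DNA included both rises and falls. Of 16 histone mRNA processing genes, 2 rose, 5 fell and 9 did not pass (median -0.21), beside the 26.6% and 25.3% of all genes that rose and fell. Slbp, the stem-loop binding protein, had 30.8 and 29.1 CPM after LPS and 23.7 and 25.0 CPM without it, which did not pass (log2 fold change 0.30 ± 0.16, adjusted p = 0.113, edgeR). Zcchc6 (0.96 ± 0.17), a uridylyltransferase of RNA ends, and Eri1 (0.60 ± 0.12), the exonuclease that trims histone mRNA ends, rose. Cpsf3 (-0.52 ± 0.09), the nuclease that cuts histone pre-mRNA, and Sympk (-0.62 ± 0.12), its scaffold, fell. With GC-corrected offsets, which could be fitted for 14 of the 16 and not for Zcchc6, none rose and 8 fell, beside 20.8% and 30.7% of all genes, and Eri1 no longer passed (0.26, adjusted p = 0.0602, edgeR). Without LPS library 2 the median of the 16 was -0.07, and without untreated library 1 it was -0.21.

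Histone genes outside the replication-dependent class included larger changes in both directions. Of 11 such genes 9 were tested (median -0.84). Of these, 1 rose, 6 fell and 2 did not pass, beside 26.6% and 25.3% of all genes that rose and fell. H3f3b, which encodes the replacement histone H3.3, had 673 and 732 CPM after LPS, against 256 and 266 CPM in untreated cells, a rise of 2.69-fold (log2 1.43 ± 0.08, adjusted p = 5.3e-20, edgeR). Its partner H3f3a, of the same protein, had a log2 fold change of -0.14 and did not pass. H1f0, the linker histone of resting cells, fell to 14.6 and 16.1 CPM after LPS, against 43.2 and 44.9 CPM without it (-1.52 ± 0.17). Cenpa, the centromeric H3 variant, stood at 44.4 and 45.5 CPM after LPS and 105 and 110 CPM without it (-1.26 ± 0.12), and H2afz, the variant H2A.Z, at 290 and 325 CPM after LPS and 558 and 581 CPM without it (-0.89 ± 0.09). These 4 changes also passed with GC-corrected offsets, at 1.10, -1.49, -1.38 and -1.02.

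Of 19 histone chaperones, 4 rose, 5 fell and 10 did not pass (median -0.06), shares near the 26.6% and 25.3% of all genes. The median was -0.15 without LPS library 1, -0.01 without LPS library 2, and -0.03 and -0.04 without untreated libraries 1 and 2. Daxx, a chaperone of H3.3, had 93.9 and 89.3 CPM after LPS, against 21.6 and 27.9 CPM without it, the largest rise on that list (log2 fold change 1.89 ± 0.13, adjusted p = 4.0e-17, edgeR). Hat1, which acetylates new H4, rose (0.53 ± 0.09), as did Npm1, a nucleolar chaperone (0.45 ± 0.08). Ubn1, a subunit of the HIRA complex for H3.3, fell (-0.69 ± 0.11). With GC-corrected offsets 2 of the 19 rose and 8 fell, beside 20.8% and 30.7% of all genes, and Npm1 no longer passed (0.08).

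Of 24 genes of DNA replication and S phase, 5 rose, 6 fell and 13 did not pass (median 0.04), again near the 26.6% and 25.3% of all genes. The sign of the median turned with the LPS library left out, at 0.13 without library 1 and -0.11 without library 2. Without untreated libraries 1 and 2 the median was 0.03 and 0.01. Mcm6, a subunit of the replicative helicase, had 522 and 457 CPM after LPS and 308 and 310 CPM without it (0.66 ± 0.09, adjusted p = 5.5e-09, edgeR). E2f1, a transcription factor of S phase entry, also rose (0.60 ± 0.12). Ccna2, cyclin A2, had 305 and 328 CPM after LPS and 483 and 462 CPM without it (-0.58 ± 0.08, adjusted p = 1.1e-07, edgeR), and Pole, the catalytic subunit of DNA polymerase epsilon, fell by 0.65 ± 0.11. With GC-corrected offsets 2 rose and 7 fell, beside 20.8% and 30.7% of all genes, and the median was -0.06.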

How the data were processed

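The files hold raw read counts per gene, deposited by the authors without normalisation or pooling, in the layout of STAR's gene counts. The submitters' processing notes list STAR 2.5.1, Trimmomatic 0.33, CASAVA 1.8.2, DESeq2 and hg19, a human build, while organism and symbols are mouse and the extraction text names hMSCs. Their annotation is not given in the sources read, and no coordinates come from the files. The reverse-strand column was used, since the labels' protocols name a directional kit. The 4 summary lines held 72.9% and 72.3% of reads in LPS libraries 1 and 2 and 67.2% in each untreated library. They stayed out of library sizes and tests. TMM factors were 0.888 and 0.88 in the LPS libraries and 1.16 and 1.1 in the untreated ones.

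All genes kept by edgeR's filter (9992 of 12982 with any count) were fitted with edgeR 4.0.16 in R 4.3.3 (TMM, robust quasi-likelihood, two-sided, treatment as the only term), with Benjamini-Hochberg adjustment over all of them and a threshold of 0.05. SE values are approximate (the fitted change over the root of its F value). The fit was tested on simulated data. Separate cultures are not stated for the libraries, so p-values measure only the spread between these libraries, which may be technical. Chi-square over its degrees of freedom was 2.44 within LPS and 1.52 within untreated libraries (genes with at least 20 counts), above counting noise. Alternatives were RLE, upper quartile and library size scaling, DESeq2 1.42.0, other filters, unstranded counts, 5 abundant entries left out, GC-corrected offsets (loess of log counts on GC content, span 0.3), a replicate block and each library left out. GC content came from GENCODE vM21 transcripts matched by symbol, and all 68 histone symbols matched; promoters came from RefSeq, GRCm38.p6.

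Named members are, per histone type, those past the threshold (the 6 most abundant if more), the most abundant, and the largest rise and fall. From each other list up to 4 called genes by smallest p are named. Slbp, H3f3a, Hist1h3a, Hist1h2bg, Hist1h2bn, Hist1h2bj, Hist2h2be, Hist1h2ac, Hist1h4a and Hist4h4 were added after their values were seen. The members, lists and alternatives were chosen with earlier results of these data known.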

Additional observations from a re-analysis of the deposited data

Results flagged for a closer look

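The kit marks strand, so reads on the strand opposite to a histone gene were looked at as a signal outside the main measurement. The level on the opposite strand of Hist2h2ab averaged 9.08 CPM after LPS, from 34 and 21 counts, against 3.65 CPM in untreated cells, from 15 and 20 counts, and the annotation lists Gm15444 on that strand. On the opposite strand of Hist1h2be the mean was 0.954 CPM after LPS, from 2 and 4 counts, against 0.397 CPM in untreated cells, from 3 and 1 counts. Both are picked out only because the mean after LPS was above that of the untreated libraries; neither was tested, and the Hist1h2be counts are too few to read.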

How the results depend on the processing

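Of the 34 falls, 11 held in all 17 alternatives, and both rises did. The choice that moved the members most was the GC content. With GC-corrected offsets 6 histone genes rose, also with the replicate block, and with coding GC content, an alternative chosen after seeing the data, 16 rose, 12 fell and the median log2 fold change was 0.02. As reported there were 2 rises, 34 falls and a median of -0.38. The cause was not tested. Library size alone moved the median of all genes by -0.36 and the median of histone genes to -0.74. The summed log2 ratio of the histone genes moved to -0.73 (-0.37 with TMM). Over all genes this setting gave 1379 rises and 4778 falls, against 2659 and 2527 with TMM. A change of scaling shifts all log2 fold changes by about the same amount. The distance of -0.38 between the histone median and that of all genes could therefore not move, and is no check of the falls. DESeq2 called 1486 falls over all genes and 31 of the 34 histone falls. GC-corrected offsets moved the median of all genes by -0.11.

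Leaving out 1 library gave 28 to 41 falls, 2 to 4 rises and medians of -0.55 to -0.28, the lowest without LPS replicate 2 and the highest without LPS replicate 1, and summed log2 ratios of -0.51 to -0.25. The replicate numbers did not pair the libraries (correlation of deviations -0.0435), and with the replicate block 35 fell and 2 rose.

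Of the genes named by rule, these changed sign. With GC-corrected offsets, first without and then with the replicate block, Hist1h2be was at -0.15 and -0.16, Hist1h2af at 0.01 and 0.01, Hist1h3h at 0.03 and 0.01, Hist1h3c at 0.09 and 0.08, Hist1h3i at 0.13 and 0.12, Hist1h2ab at 0.15 and 0.15, Hist1h2ai at 0.22 and 0.21, and Hist2h2ac at 0.35 and 0.35. With coding GC content Hist1h3h was at 0.00, Hist1h2bb at 0.02, Hist1h4c at 0.07, Hist1h3i at 0.10, Hist1h4d and Hist1h2ab at 0.15, Hist1h2ai at 0.17, Hist1h4j at 0.19, Hist1h2bc at 0.22, Hist1h3c at 0.40 and Hist2h2ac at 0.43. By library size alone Hist1h4n was at -0.25 and Hist1h2be at -0.26, and of the genes added later Hist1h2bg was at -0.26, Hist1h2bn at -0.32 and Slbp at -0.06. Hist1h2ac and Hist1h4a, also added later, were at 0.33 and 0.29 with coding GC content. Without LPS replicate 1 Hist1h3c was at 0.11, without LPS replicate 2 Hist1h2be was at -0.04, and without 1 library in turn Hist1h4n ranged between -0.07 and 0.26. Under the other alternatives no gene named by rule changed sign.

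Depth limits the weak genes, such as Hist4h4 and Hist1h2ah, and unique placement limits the copies, whichever setting is used.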
